A study of Mus musculus with 26 samples.

Results

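T cell receptor signalling and identity genes were examined in FACS sorted monocytes and macrophages. The set has 36 genes, of 54375 genes listed for monocytes, 54863 for SPMs and 57186 for MHCII negative lung macrophages, and all 36 were found in each table. The genes were chosen because T cell genes were higher in ACKR2-/- than in WT monocytes, so their values in monocytes are given as a description, without p-values. Calls there are counted, with the share over all genes beside the main count, and are not read as support. The differences in SPMs and lung macrophages were tested. 1 gene, Bcl11b, carries an older symbol in the monocyte table and was found there by its identifier ENSMUSG00000048251.

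RNA was sequenced in bulk from 26 samples of naive female mice, either WT or ACKR2-/-, that is, lacking the scavenging chemokine receptor ACKR2. There were 4 WT and 4 ACKR2-/- samples of bone marrow monocytes, 4 and 4 of SPMs, which are small peritoneal macrophages from the peritoneal cavity, and 5 and 5 of MHCII negative interstitial macrophages from the lung. WT mice were C57BL/6J animals that were bought in, while ACKR2-/- mice came from a separate homozygous colony, so that littermates were not compared, and mice were 8 to 10 weeks old unless stated otherwise. Each sample of monocytes or SPMs pooled cells from 5 mice, and for lung samples the sources used here do not give the number. P-values for lung samples therefore measure the spread between these samples, which may in part be technical. The markers of the monocyte gate included CD45+ Ly6G- SiglecF- F4/80- CD11b+ Ly6C+, those of the SPM gate CD45+ with intermediate F4/80 and with MHCII, and those of the lung macrophage gate CD45+ Ly6G- SiglecF- Ly6C- CD11b+ F4/80+ without MHCII. CD3 is not among the markers stated for these gates.

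The T cell receptor recognises a peptide on an MHC molecule but has no signalling tail of its own. It is held at the surface by the CD3 chains and the zeta chain, which are phosphorylated by the kinase LCK, brought near by the coreceptors CD4 or CD8, and then bind the kinase ZAP70, which phosphorylates the scaffold LAT. Costimulatory and inhibitory receptors such as CD28, ICOS and CTLA-4 tune this signal, and transcription factors such as BCL11B, TCF-1 and GATA3 set up T cell identity. Several of these genes, among them Il2rb, Tbx21, Ctsw, Sh2d2a and Txk, are also used by NK cells.

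Values are given as CPM, the usual library-scaled read count of a gene, with TMM factors applied to the library sizes. Between 15450670 and 19218213 reads per sample were counted on genes in monocytes, 12781144 to 35400034 in SPMs and 19950019 to 29770252 in lung macrophages. A count of 3 reads corresponded to 0.158 to 0.195 CPM in monocytes, 0.0773 to 0.264 CPM in SPMs and 0.0985 to 0.160 CPM in lung macrophages. Ackr2 itself had 2 reads in 1 WT monocyte sample and 0 in the other monocyte samples, and 5 to 9 reads in WT against 0 in ACKR2-/- SPMs. In the lung it had 150 to 469 reads in WT samples 1 to 4, 0 reads in the library labelled WT 5 and 7 to 50 reads in ACKR2-/- samples. WT lung library 3 also stood apart, with a summed level of 10 SPM markers, MHC class II genes among them, of 70520 CPM against 6044 to 9545 CPM in the other lung samples, so lung results are also given without libraries 3 and 5.

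In bone marrow monocytes most of the T cell genes were near the detection limit in WT samples and clearly present in ACKR2-/- samples, with the exception of Ets1, which made up most of the WT sum. The summed level of the 36 genes was 30.9, 42.0, 22.5 and 32.8 CPM in WT samples 1 to 4 and 200.2, 126, 161 and 207 CPM in ACKR2-/- samples 1 to 4. Without Ets1, the other 35 genes summed to 9.77, 12.2, 10.3 and 12.9 CPM in WT samples and to 179, 106, 154 and 197 CPM in ACKR2-/- samples. Every ACKR2-/- sample was above every WT sample, and ACKR2-/- sample 2 was the lowest of its group for 29 of the 36 genes. In bulk RNA, fewer cells that express a gene and less of its RNA per cell cannot be told apart.

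29 of the 36 genes passed the filter on low counts in monocytes, and a gene that is near 0 in WT samples could pass only through the ACKR2-/- samples. Of these, 25 were called higher in ACKR2-/- samples by the quasi-likelihood test of edgeR when the adjusted p was under 0.05 and the log2 fold change was beyond 0.5 in size, and 0 lower, where the share over all 13246 tested genes was 0.913% higher and 0.355% lower. In 26 of the 29 every ACKR2-/- sample was above every WT sample and in 0 below, against 4.94% and 5.25% of all tested genes. The median log2 fold change was 3.62 over the 29 genes and 0.00 over all genes. This contrast chose the genes and so fixed these calls, and nothing further is read from the counts. The 4 genes that were tested and not called were Cd4, Ptprcap, Ikzf3 and Ets1.

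The receptor chains themselves were not among the 36 genes and were read beside them. Trac, the constant part of the alpha chain, was at 0.391, 0.995, 0.723 and 0.559 CPM in WT and 9.57, 7.46, 13.9 and 16.8 CPM in ACKR2-/- monocytes. Trbc1 and Trbc2, the constant parts of the beta chain, rose on average from 0.456 to 9.38 CPM and from 0.528 to 17.7 CPM. Trdc, of the delta chain, was at 0.0556 to 0.0651 CPM in WT and 1.02 to 1.81 CPM in ACKR2-/- samples, so both receptor types were represented and the alpha and beta chains had the higher levels.

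The CD3 and zeta genes were higher in every ACKR2-/- monocyte sample than in every WT sample. Cd3d (ENSMUSG00000032094) was at 0.521, 0.871, 0.946 and 0.615 CPM in WT samples and 15.7, 13.8, 14.9 and 17.7 CPM in those lacking ACKR2, a log2 fold change of 4.38 (SE 0.22). Cd3g was at 0.456, 0.933, 0.111 and 1.06 CPM in WT samples and 13.6, 11.8, 15.5 and 18.6 CPM in the others, a log2 fold change of 4.53 (SE 0.41). Cd3e was at 0.0651, 0.187, 0 and 0.0559 CPM in WT samples and 3.5, 1.71, 3.0 and 5.36 CPM in ACKR2-/- samples. Its log2 fold change of 5.38 (SE 0.61) rests on WT levels of a few reads. Cd247, which encodes the zeta chain, rose from 0.236 to 2.10 CPM, a log2 fold change of 3.11 (SE 0.39), and 60.3% of its exon bases overlap other annotated genes, so that its reads may not all be its own. ACKR2-/- sample 4 was the highest of its group for the 3 CD3 genes and sample 1 for Cd247.

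The 3 CD3 genes lie together on chromosome 9, with Cd3g and Cd3d transcribed away from each other from starts 1355 bases apart. The 250 bases before the start of each CD3 gene and of Cd247 on chromosome 1 are printed here because these 4 genes, whose products assemble into 1 complex, differed from each other in level. The windows are chr9:44981536-44981785 on the plus strand for Cd3d, chr9:44980432-44980681 on the minus strand for Cd3g, chr9:45009612-45009861 on the minus strand for Cd3e and chr1:165788431-165788680 on the plus strand for Cd247, read 5′ to 3′ from RefSeq on GRCm38.p6. Capitals mark matches on either strand to 5 short motifs of factors active in T cells, TGTGGT for RUNX, CAGGAA for ETS, CTTTGA for TCF/LEF, AGATAA for GATA and CAGNTG for E-box factors.
Cd3d: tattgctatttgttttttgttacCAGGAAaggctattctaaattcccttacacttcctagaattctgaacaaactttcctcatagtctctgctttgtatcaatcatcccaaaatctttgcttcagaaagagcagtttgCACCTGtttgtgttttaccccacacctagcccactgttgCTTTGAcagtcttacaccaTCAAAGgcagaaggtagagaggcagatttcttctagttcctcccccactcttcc
Cd3g: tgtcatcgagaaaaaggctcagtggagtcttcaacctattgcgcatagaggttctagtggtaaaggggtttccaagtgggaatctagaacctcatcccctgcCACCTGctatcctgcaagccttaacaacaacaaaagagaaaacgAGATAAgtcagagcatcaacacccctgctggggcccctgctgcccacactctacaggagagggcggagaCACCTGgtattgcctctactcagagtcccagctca
Cd3e: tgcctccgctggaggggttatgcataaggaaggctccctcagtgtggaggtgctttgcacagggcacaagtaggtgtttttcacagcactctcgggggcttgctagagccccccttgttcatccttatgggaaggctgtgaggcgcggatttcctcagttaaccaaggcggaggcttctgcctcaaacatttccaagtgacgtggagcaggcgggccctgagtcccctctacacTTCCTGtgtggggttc
Cd247: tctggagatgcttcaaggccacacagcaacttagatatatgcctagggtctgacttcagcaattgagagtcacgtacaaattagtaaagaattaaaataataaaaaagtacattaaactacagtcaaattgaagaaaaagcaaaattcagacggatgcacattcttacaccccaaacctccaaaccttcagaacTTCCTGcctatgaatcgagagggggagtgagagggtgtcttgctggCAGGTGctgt
The Cd3d window held 1 ETS match, 2 TCF/LEF matches and 1 E-box match, and the Cd3g window held 1 GATA match and 2 E-box matches. The Cd3e window held 1 ETS match, and the Cd247 window 1 ETS match and 1 E-box match. Of all 32851 windows of this length, 14.05% held the RUNX letters, 25.7% the ETS letters, 13.8% the TCF/LEF letters, 9.99% the GATA letters and 44.8% the E-box letters. Windows were given for 20 of the 36 genes, 29 windows in all, of which 4, 13, 5, 2 and 15 held these motifs in the same order. A match is a string of letters and not evidence of binding.

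The coreceptors and CD2 followed in monocytes. Cd8b1, the beta chain of CD8, was at 0.391, 0.435, 0.556 and 0.671 CPM in WT samples and 11.4, 7.57, 8.58 and 15.2 CPM in ACKR2-/- samples, with a log2 fold change of 4.35 (SE 0.31). Cd8a rose from 0.302 to 5.75 CPM on average and Cd2, an adhesion receptor, from 0.635 to 11 CPM. Cd4 was at 0, 0.311, 0.111 and 0.168 CPM in WT samples and 4.03, 0.740, 0.842 and 1.01 CPM in ACKR2-/- samples. The groups did not overlap for Cd4, but a single library, ACKR2-/- sample 1, held 75 of its 123 reads there. That library also had the highest summed level of 6 markers of plasmacytoid dendritic cells, which also express Cd4, as given further on.

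The costimulatory receptors split into genes with clear levels and genes at a handful of reads. Cd27 was at 1.29 ± 0.306 CPM in WT monocytes and 8.08 ± 3.20 CPM in ACKR2-/- monocytes (SD, n = 4 each), and Cd5, Cd6 and Cd96 rose with log2 fold changes of 2.60, 2.81 and 3.08. Cd28, the main costimulatory receptor of naive T cells, did not pass the filter and overlapped between the genotypes, at 0 to 0.278 CPM in WT and 0.228 to 0.430 CPM in ACKR2-/- samples. Icos had 1 read in WT and 14 in ACKR2-/- samples, a ratio of 12.7 with a 95% exact interval of 1.94 to 538, which like every such interval here covers counting error only. For Cd40lg the ratio was 10.9 (2.71 to 95.3). Ctla4 had 0 reads in WT samples and 5 in ACKR2-/- samples, all in sample 4, and was at least 1.52-fold higher against the limit that a count of 0 allows over the group.

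Among the signalling genes, Skap1, an adaptor that links the receptor to integrins, had the largest fold change of the 29 genes. It was at 0.130, 0.187, 0.223 and 0.0559 CPM in WT and 10.1, 4.72, 10.1 and 10.1 CPM in ACKR2-/- samples, for a log2 fold change of 5.81 (SE 0.41). Lck was at 1.11, 0.560, 0.668 and 0.783 CPM in WT and 17.6, 9.90, 14.3 and 19.5 CPM in ACKR2-/- samples. Zap70 went from 0.0582 to only 0.780 CPM on average, with a log2 fold change of 3.57 (SE 0.58). Lat, Txk, Sh2d1a and Sh2d2a had log2 fold changes of 3.16, 4.91, 3.62 and 4.56, where 26.6% of the exon bases of Sh2d1a overlap another gene. Themis, a regulator of receptor signalling in thymocytes, had 0 reads in WT and 66 in ACKR2-/- samples and was at least 20.0-fold higher. Ptprcap, which encodes a partner of CD45, had 0.445 to 0.951 CPM in WT and 0.737 to 1.67 CPM in ACKR2-/- samples, which overlapped, and all of its exon bases overlap other genes.

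Among receptors for cytokines and surface genes, Il2rb, the beta chain shared by the receptors for IL-2 and IL-15, was at 0.326, 0.684, 0.223 and 0.168 CPM in WT and 6.56, 5.35, 9.58 and 11.7 CPM in ACKR2-/- monocytes. Il7r rose from 0.197 to 2.78 CPM and Thy1 from 0.200 to 2.43 CPM. Ctsw, a cysteine protease of cytotoxic lymphocytes, was at 0.261, 0.373, 0.334 and 0.895 CPM in WT and 15.2, 8.03, 14 and 19.5 CPM in ACKR2-/- samples, and per kilobase it had the highest level of the 36 genes there, 11.5 CPM per kilobase. None of these genes overlapped between the genotypes.

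The transcription factors were less uniform. Tcf7, Lef1 and Tbx21 had log2 fold changes of 2.11, 3.41 and 3.82, and Lef1 shares 13.7% of its exon bases with another gene. Bcl11b was at 0 CPM in WT samples 1 to 3 and 0.224 CPM in sample 4, against 0.531 to 1.08 CPM in ACKR2-/- samples. Gata3 had a ratio of 22.7 (5.97 to 193, 95% exact interval). Ikzf3 had a log2 fold change of 1.22 (SE 0.45) and the genotypes overlapped. Ets1 was the only gene of the 29 with a negative difference, at 20.8 ± 7.22 CPM in WT monocytes and 14.8 ± 7.15 CPM in ACKR2-/- monocytes (SD, n = 4 each), and its level in WT monocytes was the highest of the set, at 2.45 CPM per kilobase.

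**Figure D1:**
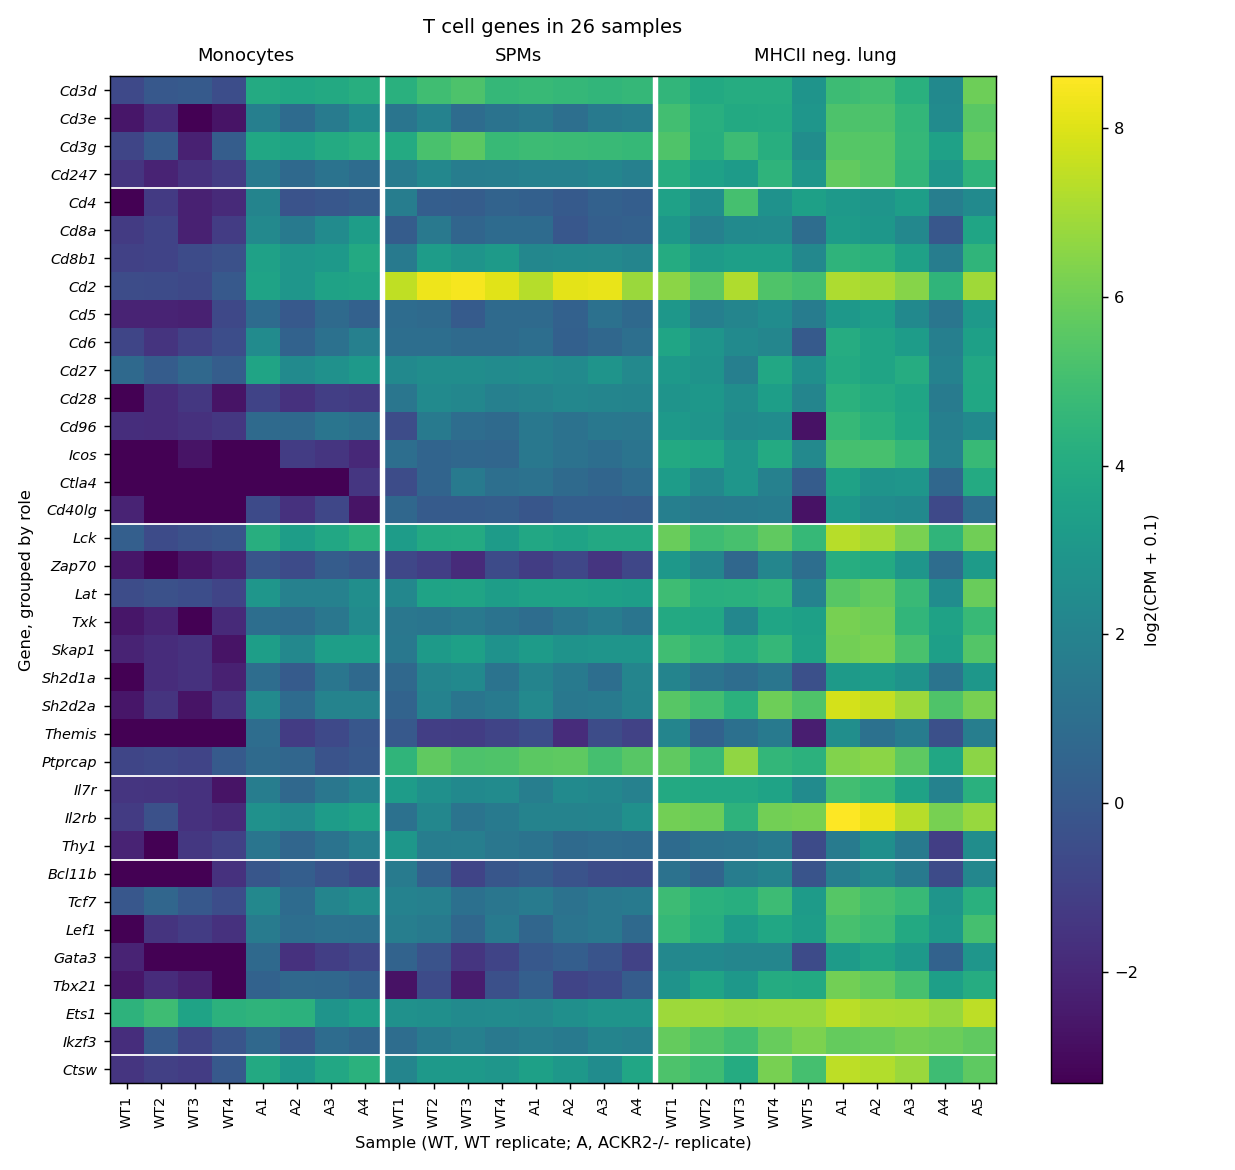
Level of each of the 36 genes, as log2(CPM + 0.1), in each of the 26 samples, with cell types side by side, WT before ACKR2-/- samples and genes grouped by role. In monocytes the ACKR2-/- columns are lighter than the WT columns for all groups of genes except Ets1, Ikzf3, Ptprcap and the genes at a few reads, while the SPM columns look alike and the lung columns differ most between single samples.

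Markers of other lymphoid cells were read in the same monocyte libraries. Summed over 9 markers of NK cells and ILC1, WT samples held 0.0651 to 0.334 CPM and ACKR2-/- samples 2.73 to 6.37 CPM. Of these markers, Ncr1 and Klra4 had 0 reads in all 8 samples. Klre1 was the only 1 of the 9 to pass the filter, with a log2 fold change of 4.43. Its mean was 0.0868 CPM in WT and 2.06 CPM in ACKR2-/- samples. Of the 9, 5 were higher in every ACKR2-/- sample than in every WT sample, namely Klre1, Klrc2, Eomes, Gzma and Prf1. The 6 markers of plasmacytoid dendritic cells summed to 8.18 to 11.1 CPM in WT samples and to 139.8, 34.8, 32.9 and 50.6 CPM in ACKR2-/- samples 1 to 4, with none of the 6 at 0 in all samples. All 6 had positive log2 fold changes with a median of 2.53, and 3 of them, Siglech, Klk1 and Cox6a2, were called, with 2.95, 3.43 and 2.61. The 8 B cell markers summed to 48.1 to 51.9 CPM in WT and 39.2 to 83.3 CPM in ACKR2-/- samples, which overlapped. The part of these other cells in the values of the T cell genes was not tested. Without ACKR2-/- sample 1, 23 of 29 genes were called and the median log2 fold change was 3.59.

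Genes that vary with T cell state were read too. Ccr7 and S1pr1, which are high in naive and central memory T cells, had log2 fold changes of 3.17 and 3.0 in monocytes, and Ikzf2 of 2.57. Of a list of 31 other genes of the receptor pathway, 27 were tested and 4 were called higher, 0 lower, with a median log2 fold change of 0.06, again as a description of the contrast that chose the genes. They included Prkcq, a kinase that carries the signal to NF-kappaB, with a log2 fold change of 2.9, Sla2, an adaptor that dampens signalling, with 2.67, and Tespa1 with 1.84. Of 5 markers of thymocytes and early lymphoid cells, 2 passed the filter and 0 of these were called. The list summed to 22.4 to 23.5 CPM in WT and 23.8 to 40.1 CPM in ACKR2-/- samples. Cd1d1 alone made up most of that sum, at 21.4 to 22.5 CPM in WT and 23.0 to 34.8 CPM in ACKR2-/- samples. The summed level of 8 monocyte markers was 56269 to 68235 CPM in WT and 28321 to 72070 CPM in ACKR2-/- samples. ACKR2-/- samples 1 and 2, at 28321 and 44070 CPM, were below every WT sample. Most of this sum was Lyz2 alone, at 48102 to 60260 CPM in WT and 23864.5 to 63531 CPM in ACKR2-/- samples. All 8 monocyte markers had negative log2 fold changes with a median of -0.26, and 0 were called.

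**Figure D2:**
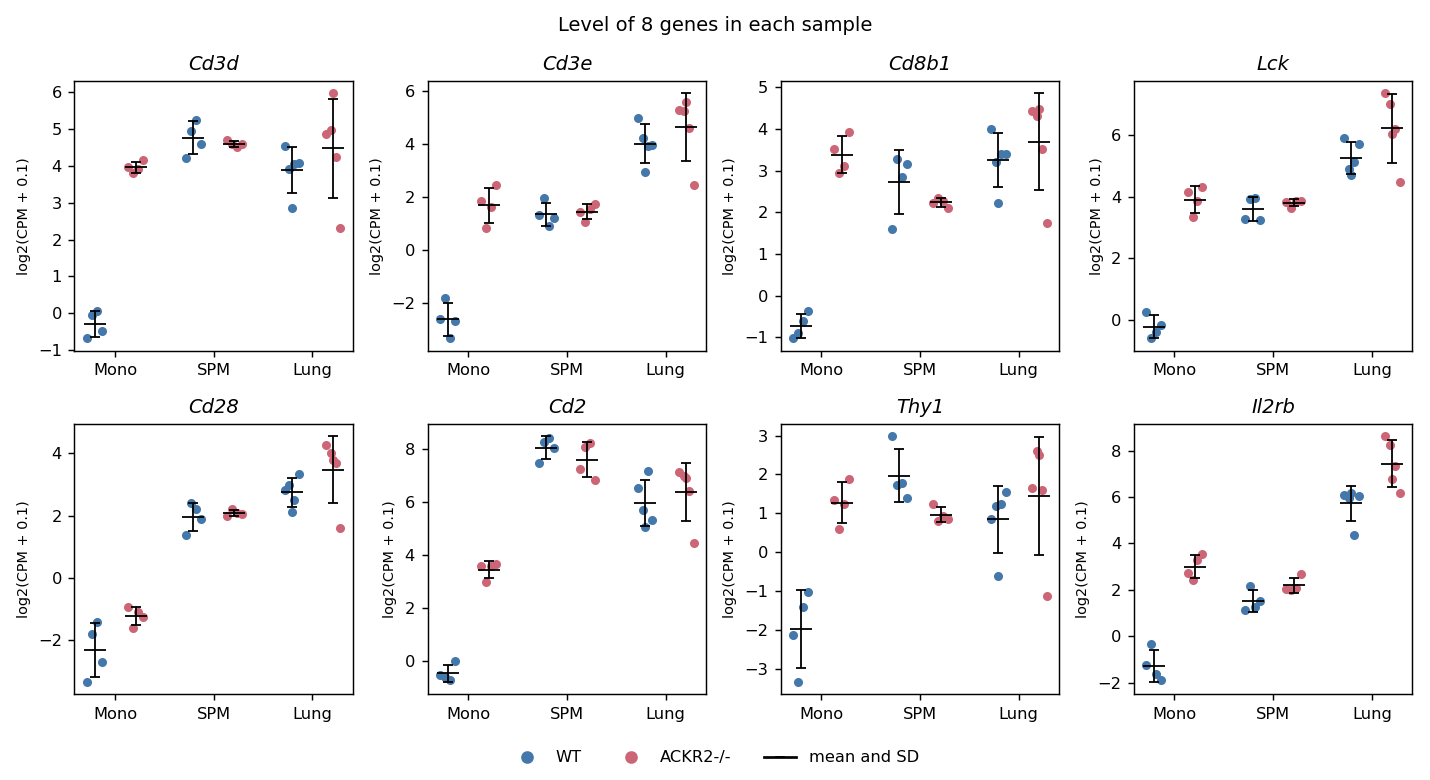
Level of 8 of the genes, as log2(CPM + 0.1), in each sample of monocytes (Mono), SPMs and MHCII negative lung macrophages (Lung), with points for samples and lines for the mean and SD on this scale. In monocytes the genotypes are apart for Cd3d, Cd3e, Cd8b1, Lck, Cd2, Thy1 and Il2rb, and overlap for Cd28, while in SPMs and lung most genes overlap.

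SPMs carried T cell genes in both genotypes, and they did not differ between WT and ACKR2-/- samples beyond the test's threshold. All 36 genes passed the filter, and 0 were called by edgeR, where 0.0308% of the 12997 tested genes were called higher and 0.0154% lower. DESeq2 also called 0 of the 36, and 33 of all 12997 tested genes in either direction. At an unadjusted p under 0.05, 0 of the 36 were higher and 2 lower, against 2.93% and 2.52% of all genes. In 1 gene every ACKR2-/- sample was above every WT sample and in 1 below, where the shares over all genes were 1.8% and 1.6%. The median log2 fold change of the 36 genes was 0.06, with 21 positive and 15 negative, against -0.05 over all genes.

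Cd3d and Cd3g had higher mean levels in SPMs than in ACKR2-/- monocytes. The mean of Cd3e was lower, at 0.621 CPM per kilobase in WT and 0.653 in ACKR2-/- SPMs against 0.831 in ACKR2-/- monocytes. The tables were scaled separately, so levels across them are only set side by side. Cd3d was at 18.7, 31.0, 38.3 and 24.2 CPM in WT and 25.9, 24.2, 22.8 and 24.2 CPM in ACKR2-/- SPMs, a log2 fold change of -0.21 (SE 0.23). Cd3g was at 31.6 ± 13.9 CPM in WT and 27.3 ± 1.44 CPM in ACKR2-/- SPMs (SD, n = 4 each). Cd3e was far lower than Cd3d and Cd3g, at 2.4, 3.77, 1.76 and 2.22 CPM in WT and 2.61, 1.98, 2.83 and 3.23 CPM in ACKR2-/- SPMs. For all 3 genes the genotypes overlapped. Cd2 was the highest gene per kilobase, at 158 CPM per kilobase in WT and 121 in ACKR2-/- SPMs, followed by Ptprcap at 40.8 and 48.0. Which cells in the SPM samples carried Cd2 was not tested.

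The gene with the smallest p in SPMs was Thy1, a surface protein of T cells that other cells can also carry. It was at 7.76, 3.20, 3.34 and 2.55 CPM in WT and 2.26, 1.65, 1.80 and 1.72 CPM in ACKR2-/- SPMs, with WT sample 1 far above the others and no overlap between the genotypes. The log2 fold change was -1.18 (SE 0.37), with an adjusted p of 0.788 by edgeR and an exact two-sided permutation p of 0.0286, the smallest that 4 samples against 4 allow. Without WT sample 1 the log2 fold change was -0.70. Il7r, the receptor for the survival factor IL-7, had a log2 fold change of -0.65 (SE 0.28), at 4.93 to 9.58 CPM in WT and 3.33 to 5.10 CPM in ACKR2-/- SPMs, which overlapped.

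Icos was the gene with no overlap in the other direction, at 1.87, 1.34, 1.5 and 1.44 CPM in WT and 2.64, 2.13, 1.91 and 2.34 CPM in ACKR2-/- SPMs. Its log2 fold change was 0.55 (SE 0.26), with an adjusted p of 0.788 by edgeR and an exact permutation p of 0.0286. Il2rb and Cd8b1 were next by p, with log2 fold changes of 0.66 (SE 0.31) and -0.62 (SE 0.33) and the same adjusted p of 0.788 by edgeR. The largest positive value, 1.07 (SE 0.65) for Tbx21, and the value of -0.94 (SE 0.52) for Bcl11b had wide errors.

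Other lists in SPMs are given beside these values. Summed over the 9 NK and ILC1 markers, WT SPMs held 3.31 to 15 CPM and ACKR2-/- SPMs 38.3, 14.4, 13.4 and 82.2 CPM, none of the 8 tested markers was called, and Ncr1, which had an adjusted p of 0.788, was higher in every ACKR2-/- sample. The B cell markers summed to 183 to 592 CPM in WT and 369 to 517 CPM in ACKR2-/- SPMs. The 10 SPM markers summed to 147161 to 157884 CPM in WT and 88357 to 135818 CPM in ACKR2-/- SPMs, which did not overlap. How far these other levels bear on the T cell genes was not tested. Of the 31 other pathway genes, 29 were tested and 0 called, with 7 positive and 22 negative values, among them -0.79 for Nfatc2 and -0.56 for Cblb.

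**Figure D3:**
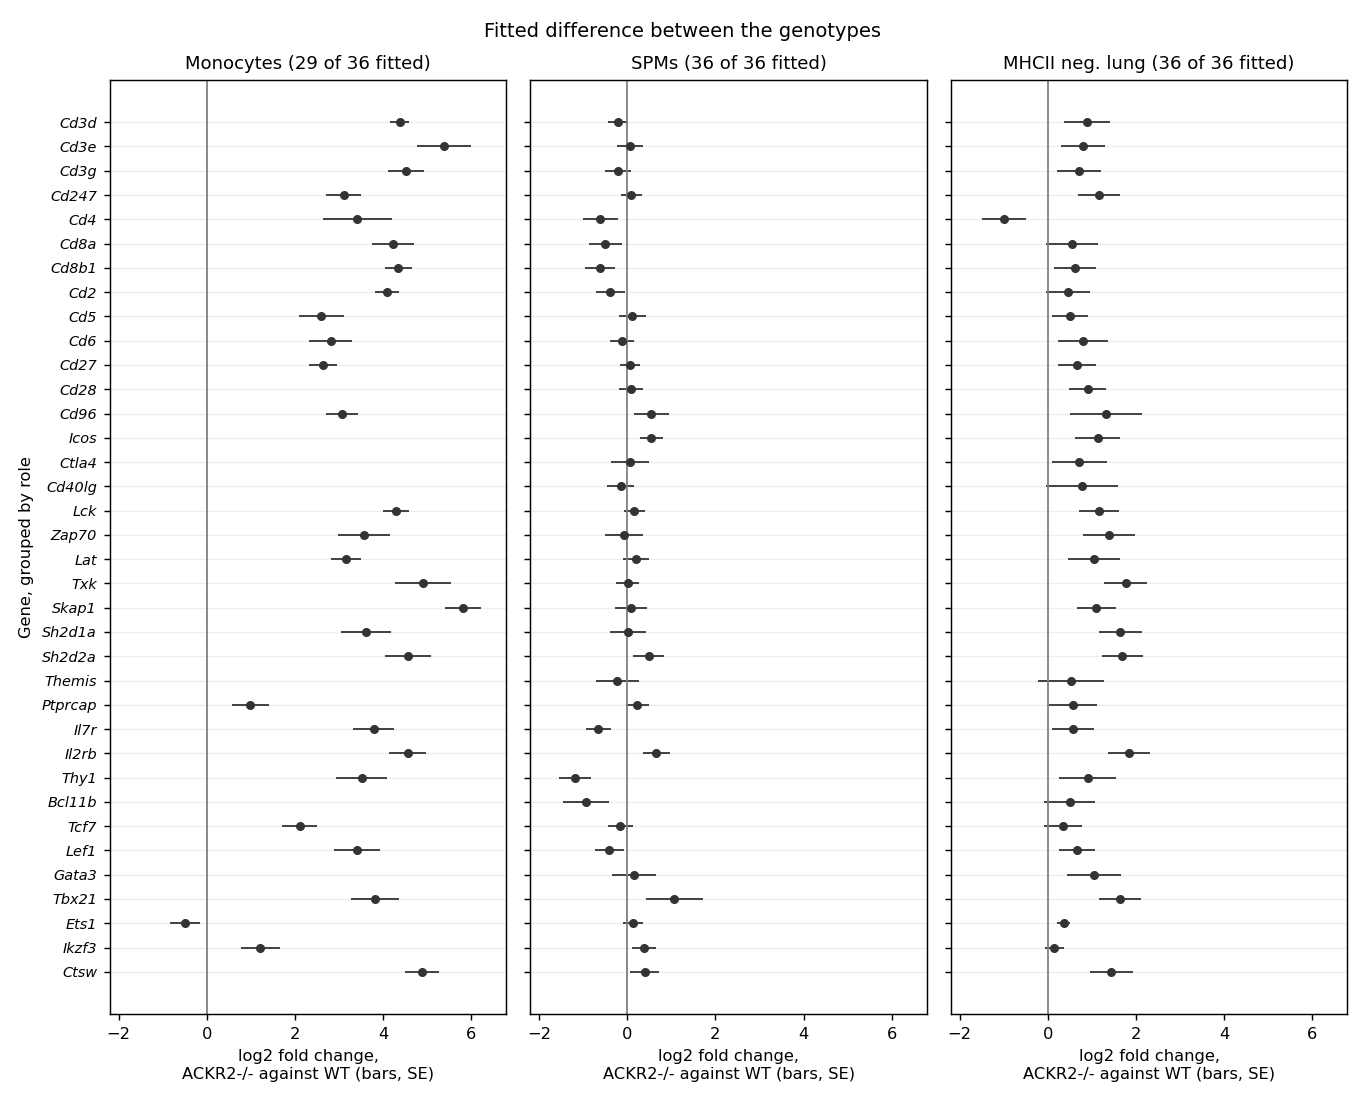
Fitted log2 fold change of ACKR2-/- against WT samples, with its SE, for each gene in each cell type, where the 7 genes below the filter in monocytes have no point. In monocytes, whose contrast chose the genes, 28 of 29 points are above 0, in SPMs the points scatter around 0, and in lung macrophages 35 of 36 are above 0 with wide errors.

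In MHCII negative lung macrophages most of the genes had higher means in ACKR2-/- samples, and 0 of the 36 passed the test by edgeR, whose smallest adjusted p was 1.00. Over all 16824 tested genes, 0% were called higher and 0% lower. DESeq2 called 1 of the 36, Il2rb, with an adjusted p of 0.0492, and 20 of all 16824 tested genes in either direction. The adjusted p of Il2rb lay between 0.405 and 1.00 under the other alternatives. At an unadjusted p under 0.05, 12 of the 36 were higher and 0 lower, against 1.24% and 1.72% of all genes. In 1 gene, Il2rb, every ACKR2-/- sample was above every WT sample, and in 0 below, against 0.22% and 0.226% of all genes. The median log2 fold change was 0.80, with 35 positive values and 1 negative, against -0.04 over all genes, and it was 0.69 without WT libraries 3 and 5.

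The summed level of the 36 genes in the lung was 924, 661, 740 and 788 CPM in WT samples 1 to 4, 547 CPM in the library labelled WT 5, and 2148, 1887, 1215, 489 and 1311 CPM in ACKR2-/- samples 1 to 5. ACKR2-/- sample 4 was below every WT sample, and it was the lowest ACKR2-/- sample for 35 of the 36 genes. The library labelled WT 5 was the lowest WT sample for 25. Low samples were thus low for most of the genes at once.

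Il2rb was at 68.1, 61.6, 20.6, 66 and 72.0 CPM in WT and 391, 306, 161, 72.4 and 109.6 CPM in ACKR2-/- lung samples. ACKR2-/- sample 4 was barely above the library labelled WT 5, the highest of the WT samples. The log2 fold change was 1.85 (SE 0.47), with an exact two-sided permutation p of 0.00794, the smallest that 5 samples against 5 allow, and 1.70 (SE 0.50) without WT libraries 3 and 5. The other 4 genes with the smallest p were Sh2d2a, Txk, Tbx21 and Sh2d1a, with log2 fold changes of 1.70 (SE 0.45), 1.77 (SE 0.49), 1.64 (SE 0.47) and 1.65 (SE 0.49), and without those libraries 1.51, 1.51, 1.66 and 1.29. Sh2d2a, an adaptor of LCK, was at 45.0, 31.7, 19.5, 62.1 and 40.5 CPM in WT and 226, 190, 116, 39.7 and 71.7 CPM in ACKR2-/- samples. Tbx21, which encodes T-bet, was at 6.99, 12.5, 8.17, 16.2 and 15.3 CPM in WT and 66.3, 54.6, 35.7, 10.7 and 16.8 CPM in ACKR2-/- samples. In both, ACKR2-/- sample 4 lay within the WT range.

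The CD3 and zeta chains had log2 fold changes of 0.71 to 1.16 in the lung. Cd3d was at 23.3, 15.2, 16.6, 16.7 and 7.15 CPM in WT and 29.3, 31.4, 18.8, 4.91 and 63.0 CPM in ACKR2-/- samples. Cd3e was at 31.4, 18.6, 15.2, 15.6 and 7.55 CPM in WT and 38.7, 38.1, 24.1, 5.31 and 47.6 CPM in ACKR2-/- samples, for a log2 fold change of 0.80 (SE 0.50). ACKR2-/- sample 5 was the highest for both and sample 4 the lowest of all 10. Lck and Zap70 had log2 fold changes of 1.16 (SE 0.45) and 1.38 (SE 0.59). Without WT libraries 3 and 5, the values were 0.71 for Cd3d, 0.52 for Cd3e, 0.96 for Lck and 0.94 for Zap70.

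Cd4 was the only gene with a lower mean in ACKR2-/- lung samples. It was at 11.2, 5.88, 34.4, 6.70 and 10.8 CPM in WT and 8.70, 7.34, 10.1, 3.30 and 5.21 CPM in ACKR2-/- samples, for a log2 fold change of -0.99 (SE 0.50), with WT library 3 far above the others. Without WT libraries 3 and 5 the means were 7.94 and 6.94 CPM, and the log2 fold change was -0.17 (SE 0.40). Library 3 also had the highest B cell and MHC class II levels of the lung samples, with the 8 B cell markers at 2408 CPM against 186 to 799.7 CPM in the others. Whether the Cd4 reads there belong to T cells was not tested. Ikzf3 had the smallest positive value, 0.14 (SE 0.21), at 32.2 to 76.0 CPM in WT and 51.1 to 66.2 CPM in ACKR2-/- samples.

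NK markers were much higher in the lung libraries than in the others. The 9 NK and ILC1 markers summed to 252, 199, 132, 384 and 336 CPM in WT and 1765, 2034, 841, 331 and 616 CPM in ACKR2-/- samples, all 9 had positive log2 fold changes with a median of 2.0, and 0 were called. Ncr1, which encodes NKp46, had a mean of 17.3 CPM in WT and 54.7 CPM in ACKR2-/- samples. The receptor constant genes summed to 35.96 to 129 CPM in WT and 30.3 to 187 CPM in ACKR2-/- samples. The 10 markers of lung interstitial macrophages summed to 2250 to 5064 CPM in WT and 1547 to 3246 CPM in ACKR2-/- samples. The part of NK cells in the values of the T cell genes was not tested. Of the thymocyte markers, Rag1, Rag2 and Ptcra had 0 reads in all 10 lung samples.

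Because NK cells and T cells share several of the genes, each was compared across the 10 lung samples with Ncr1 and with the summed level of Trac, Trbc1 and Trbc2, on log2(CPM + 0.1), a comparison chosen after the data had been seen. The 72 relations were adjusted together, and 37 of them had an adjusted p under 0.05 for Pearson's r by permutation. Cd3e followed the receptor chains most closely, with r = 0.99 and rho = 0.98, each with a permutation p of 1e-05, the smallest that 100000 resamples give, an adjusted p of 0.00063, and r = 0.96 without the 2 farthest samples. For Cd8b1 r was 0.98 (permutation p = 2e-05, adjusted p = 0.00063) and rho was 0.95 (permutation p = 0.00014), and for Lat r was 0.96 (permutation p = 6e-05, adjusted p = 0.00063) and rho was 0.94 (permutation p = 0.00018). These permutations ignored genotype, so, also chosen after the data had been seen, the relations were taken after each genotype's mean had been subtracted, with all 14400 exact permutations within genotype. On that basis r was 0.99 for Cd3e, 0.99 for Cd8b1 and 0.96 for Lat, each with an adjusted p of 0.0096, and 25 of the 72 relations had an adjusted p under 0.05.

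The genes shared with NK cells are given with both measures. For Ctsw with Ncr1 r was 0.87 (permutation p = 0.0013, adjusted p = 0.0045) and rho was 0.73 (permutation p = 0.021), with r = 0.69 without the 2 farthest samples, which were ACKR2-/- samples 1 and 2, and with the receptor chains r was 0.66 (permutation p = 0.04, adjusted p = 0.073) and rho was 0.81 (permutation p = 0.0075). For Tbx21 with Ncr1 r was 0.89 (permutation p = 0.0014, adjusted p = 0.0045) and rho was 0.66 (permutation p = 0.044), with r = 0.66 without those samples, and with the receptor chains r was 0.54 (permutation p = 0.11, adjusted p = 0.18) and rho was 0.64 (permutation p = 0.055). For Il2rb with Ncr1 r was 0.83 (permutation p = 0.0027, adjusted p = 0.0076) and rho was 0.65 (permutation p = 0.049), and r fell to 0.50 without them, so this relation rests on them in part, and with the receptor chains r was 0.60 (permutation p = 0.067, adjusted p = 0.12) and rho was 0.61 (permutation p = 0.067). With genotype means subtracted, r with Ncr1 was 0.81 for Ctsw, 0.84 for Tbx21 and 0.75 for Il2rb, with adjusted p of 0.046, 0.054 and 0.079 by exact permutation. Whether a gene was closer to Ncr1 or to the receptor chains was not tested, and 6 genes had the higher value with Ncr1 by r but 4 by rho. Cd4 had r = 0.07 for the receptor chains (permutation p = 0.85, adjusted p = 0.86) and rho = -0.01 (permutation p = 1.0), and r = -0.06 for Ncr1 (permutation p = 0.88, adjusted p = 0.88) with rho = 0.16 (permutation p = 0.66). Its r with the receptor chains was 0.69 without WT libraries 3 and 5 and -0.44 without the 2 farthest samples, so that its value depends on single samples.

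**Figure D4:**
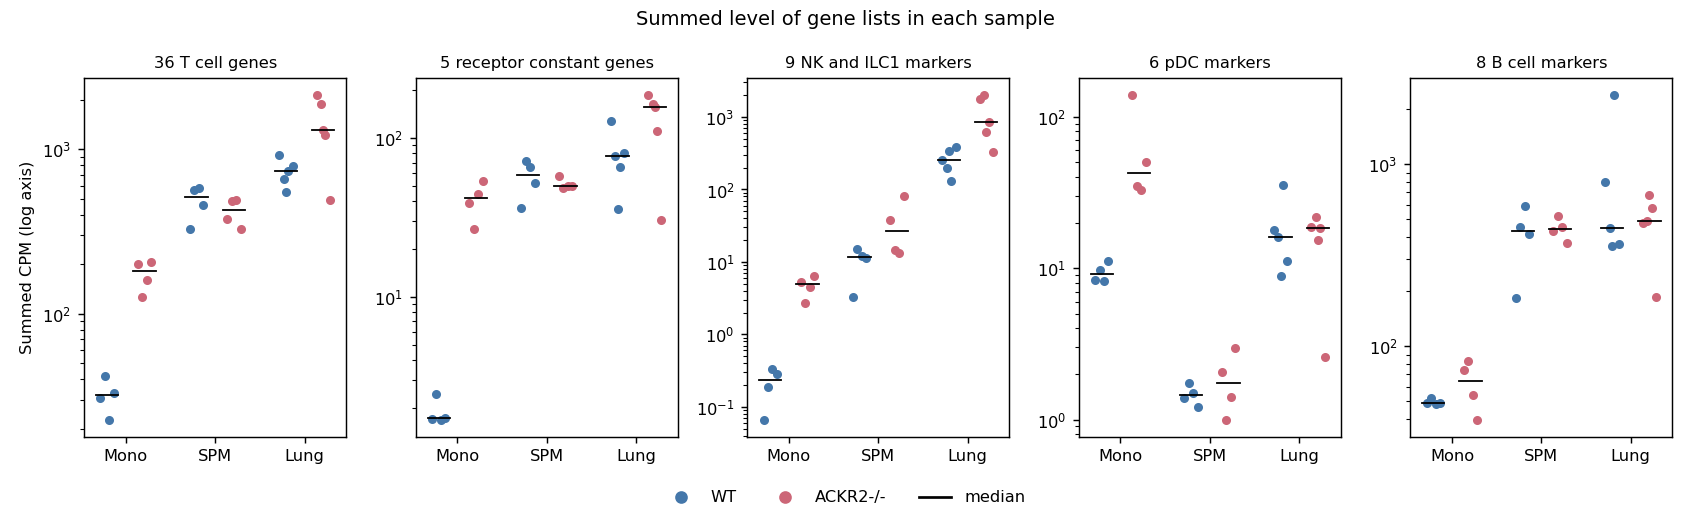
Summed CPM, on a log axis, of the 36 T cell genes, the 5 receptor constant genes and the markers of NK cells and ILC1, plasmacytoid dendritic cells (pDC) and B cells in each sample, with points for samples and lines for medians. In monocytes the first 4 lists are higher in every ACKR2-/- sample than in every WT sample and the B cell list overlaps, and in the lung 4 of 5 ACKR2-/- samples lie above every WT sample for the 36 genes and for the NK and ILC1 markers.

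The proportions among the genes were then set side by side. Levels were divided by gene length, and shares were taken within the 4 CD3 and zeta genes of each sample. Cd3d made up 60.0% ± 2.996 (SD, n = 4) of the 4 genes in ACKR2-/- monocytes, 59.3% ± 3.14 (SD, n = 4) in WT SPMs and 57.9% ± 1.00 (SD, n = 4) in ACKR2-/- SPMs, but 40.1% ± 2.98 (SD, n = 5) in WT and 37.5% ± 8.37 (SD, n = 5) in ACKR2-/- lung samples. Cd3e made up 5.61% ± 1.75 in ACKR2-/- monocytes, 2.57% ± 1.06 in WT SPMs and 19.5% ± 2.83 in WT lung samples. The zeta gene Cd247 made up 2.78% ± 0.754 in ACKR2-/- monocytes and 12.2% ± 4.60 in WT lung samples. WT monocytes had only 114 reads on the 4 genes in all 4 samples, so their shares, 45.8% to 87.3% for Cd3d, are loose. Each table was counted and scaled on its own, and the lung table may have been counted in another way, so a difference in shares between cell types cannot be told apart from a difference in counting and was not tested.

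Within the coreceptors, the Cd8b1 share was 78.9% ± 3.45 in ACKR2-/- monocytes (SD, n = 4), 81.9% ± 11.5 in WT SPMs (SD, n = 4) and 72.6% ± 4.91 in ACKR2-/- lung samples (SD, n = 5). Cd4 was 1.89% to 9.98% in ACKR2-/- monocytes, with the highest share in sample 1, and 16.2% to 50.1% in WT lung samples. The mean share of Cd8b1 was above that of Cd8a in both genotypes of all 3 cell types.

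Relative to the summed CPM of Trac, Trbc1 and Trbc2, the genes had unlike proportions in the 3 cell types. Lck had a median ratio of 0.384 in ACKR2-/- monocytes, 0.238 in WT and 0.286 in ACKR2-/- SPMs, and 0.571 in WT and 0.805 in ACKR2-/- lung samples. Cd28 had a median ratio of 0.00882 in ACKR2-/- monocytes, against 0.0737 in WT SPMs and 0.110 in WT lung samples, which were 8.36 and 12.4 times as high. Icos was at 0.00466 in ACKR2-/- monocytes, and 0.0268 and 0.146 in the same groups. The monocyte ratios of Cd28 and Icos rest on a few reads per ACKR2-/- sample, 4 to 8 for Cd28 and 0 to 6 for Icos. Cd8a and Cd8b1 went the other way, with median ratios of 0.128 and 0.296 in ACKR2-/- monocytes and 0.0316 and 0.130 in WT SPMs.

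Cd2 and Ptprcap set SPMs apart from monocytes on this scale. The median ratio of Cd2 was 0.290 in ACKR2-/- monocytes, 5.22 in WT and 4.46 in ACKR2-/- SPMs, and 0.764 in WT and 0.815 in ACKR2-/- lung samples. For Ptprcap, whose exons all overlap other genes, it was 0.0314 in ACKR2-/- monocytes and 0.692 in WT SPMs. In the lung, Il2rb, Sh2d2a and Tbx21 had the ratios farthest from monocytes among the NK-shared genes, with Il2rb at 0.868 in WT and 2.04 in ACKR2-/- lung samples against 0.218 in ACKR2-/- monocytes. Over the 36 genes, the mean CPM per kilobase in ACKR2-/- monocytes had a Spearman rho of 0.74 with WT SPMs and 0.71 with WT lung samples. WT monocytes had nearly the same values, 0.73 and 0.71. With ACKR2-/- lung samples rho was 0.65 for ACKR2-/- monocytes and 0.59 for WT monocytes. Between the genotypes rho was 0.84 in monocytes, 0.95 in SPMs and 0.93 in the lung. These are descriptions across genes, which are not independent and share libraries, length and counting.

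**Figure D5:**
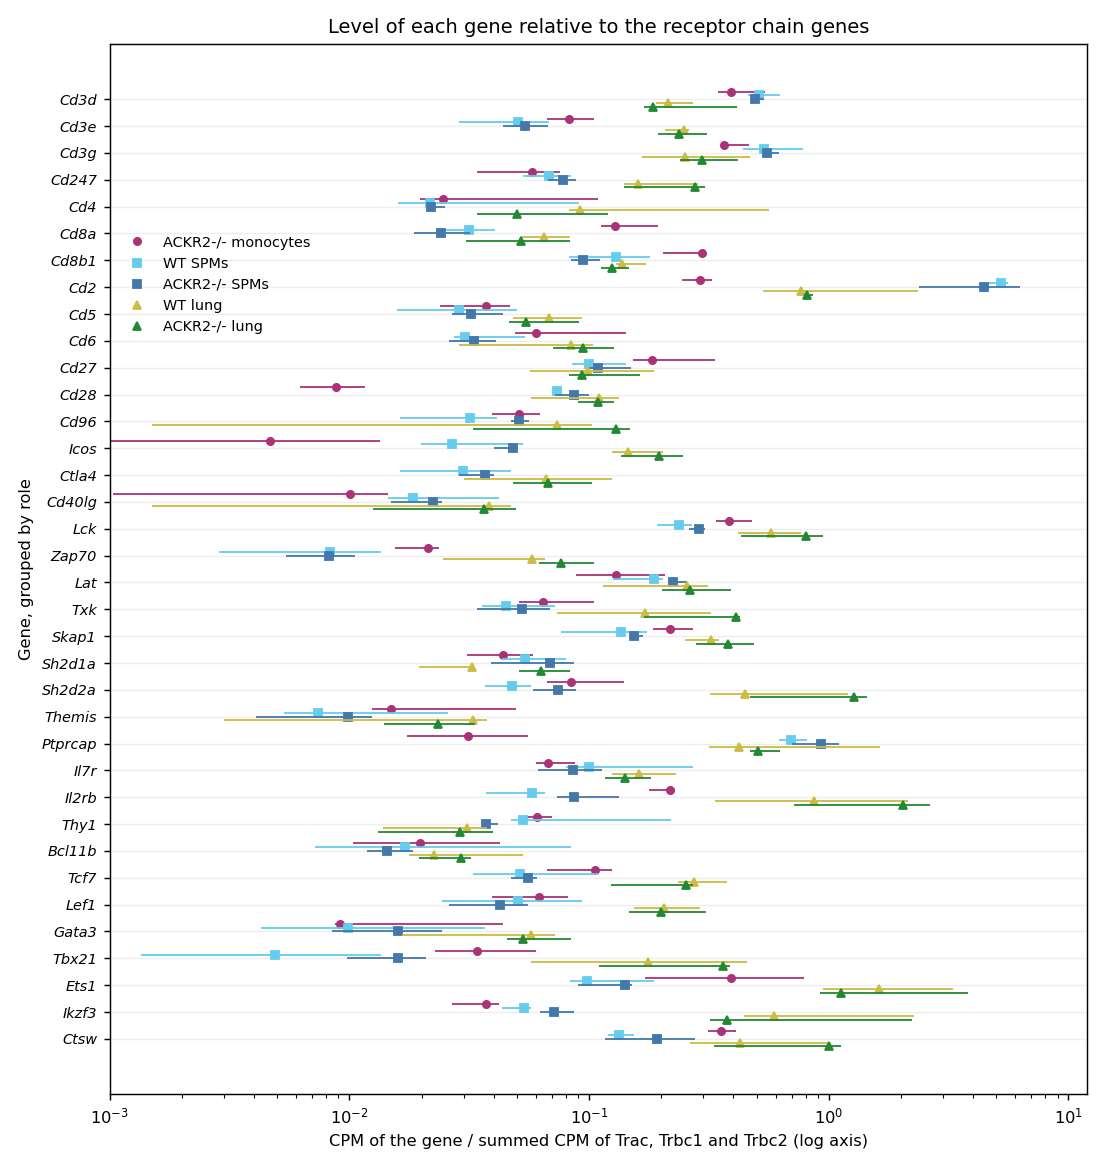
CPM of each gene divided by the summed CPM of Trac, Trbc1 and Trbc2, on a log axis, in ACKR2-/- monocytes and in SPMs and lung samples of both genotypes, with symbols for medians and lines from the lowest to the highest sample. Cd2 and Ptprcap lie farthest to the right in SPMs and Cd28 and Icos farthest to the left in monocytes, where Ctla4 has a median of 0 and is not drawn and lines that reach 0 end at the axis.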

How the data were processed

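RNA was sequenced by the authors from poly-A libraries made by SMARTer amplification, as paired-end reads of 150 bp per the methods. What the authors deposited was 1 table of raw counts for each cell type, not normalized. The submitters' processing notes name HISAT2 2.0.5, featureCounts 1.5.0-p3, DESeq2 and mm10. The lung table ends in 5 summary lines of another counter's kind, 56.3% of its counts, which were left out, so its counting may differ. For the strand setting the sources used here give nothing. Amplification from few cells makes low genes more variable, and PCR copies of reads cannot be told apart.

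The counts were analysed in R 4.3.3 with edgeR 4.0.16, for each cell type alone, after filterByExpr (minimum count 10, minimum total 15) and TMM scaling, with the quasi-likelihood test and Benjamini-Hochberg adjustment over all tested genes. Calls needed a log2 fold change beyond 0.5 in size and an adjusted p under 0.05. Group ratios of untested genes have exact 95% intervals, and bounds against 0 use 3 counts over the group. Positions came from the tables, which equal GENCODE M21 for 91.7% of the 36 genes. 0 columns were left unmapped. Alternatives were RLE factors, no filter, DESeq2 1.42.0, the replicate number as a block, the adjusted p alone and each sample left out. In simulated data of the lung comparison on 16314 genes, edgeR recovered 74% of genes changed 4-fold and DESeq2 87.5%, with 3.27% and 20.8% false calls. Python 3.11.15 and SciPy 1.17.1 were used for relations and motifs.

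All 36 genes are given by level. Fitted values with p are given in SPMs and lung for genes called and the 5 with the smallest p, other pathway genes for those called and the 3 largest. The 36 genes and the lists were chosen with earlier results of these data known. Some items, a marker of the gates among them, are not reported here.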

Additional observations from a re-analysis of the deposited data

Results flagged for a closer look

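Of 214 groups of 4 or 5 samples examined over the 36 genes, 22 had a sample far from the others by Dixon's test at 95%. A rate of 1 in 20 would give about 10.7, but only for independent groups with normally distributed values. The genes share libraries, and a group with reads in 1 sample only is always flagged, so the 22 cannot be judged against that number.

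In WT monocytes the flagged values were high and of few reads. Sample 4 was high for Cd5 at 0.503 CPM, Ptprcap at 0.951 CPM and Bcl11b at 0.224 CPM. Sample 1 held the only reads of Cd40lg and of Gata3, at 0.130 CPM each, and sample 3 the only read of Icos, at 0.0556 CPM. In ACKR2-/- monocytes sample 1 was high for Cd4 at 4.03 CPM, sample 2 was low for Cd2 at 7.68 CPM and for Skap1 at 4.72 CPM, and sample 4 held all reads of Ctla4, at 0.266 CPM.

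In WT SPMs sample 1 was high for Cd4 at 3.21 CPM, Cd40lg at 1.49 CPM, Themis at 0.911 CPM and Thy1 at 7.76 CPM. In ACKR2-/- SPMs sample 2 was low for Cd96 at 2.13 CPM and Lck at 12.2 CPM, sample 1 was low for Cd40lg at 0.805 CPM, and sample 4 was high for Il2rb at 6.36 CPM.

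In the lung, WT library 3 was high for Cd4 at 34.4 CPM and low for Il2rb at 20.6 CPM. The library labelled WT 5 was low for Cd40lg at 0.0504 CPM and Gata3 at 0.554 CPM.

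Thy1 was higher in every ACKR2-/- monocyte sample than in every WT sample, with a log2 fold change of 3.52, and lower in every ACKR2-/- SPM sample, with a log2 fold change of -1.18. The difference between these cell types was not tested, and the monocyte contrast chose the genes.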

How the results depend on the processing

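16 results were recomputed under 216 alternative settings in all. No called value was reversed. The SPM median, which no test called, turned to -0.000669 without WT replicate 1. The number of genes called stayed within 1.5 times that of the main test except under DESeq2 in the lung. Under DESeq2, 1 gene, Il2rb, was called in lung macrophages, where edgeR called 0. Over all 16824 tested genes DESeq2 called 20 there. With each sample left out in turn, 20 to 26 genes were called in monocytes with a median log2 fold change of 3.49 to 3.87, 0 were called in SPMs with a median of -0.000669 to 0.11, and 0 in the lung with a median of 0.62 to 1.08. Same-numbered samples did not deviate together in every pair, with correlations of -0.12 to 0.31 in monocytes, -0.09 to 0.02 in SPMs and -0.08 to 0.64 in the lung, so they were not taken as pairs. With the replicate block, 24 genes were called in monocytes, 0 in SPMs and 0 in the lung, where the median log2 fold change was 0.73. The fit without WT lung libraries 3 and 5 together was chosen after seeing the data.

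Depth limits the genes of a few reads, Cd28, Icos, Ctla4, Cd40lg, Themis, Bcl11b and Gata3 in monocytes, to bounds or wide intervals. In the lung, the spread between samples sets the limit, since ACKR2-/- sample 4 lay below every WT sample in the summed level. The counting of reads where Ptprcap, Cd247, Sh2d1a and Lef1 overlap other genes is not known.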
